A study of Heliocidaris erythrogramma with 7 samples.

Results

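The genes *otx*, *eve* and *krl* were followed in embryos and larvae of the sea urchin *Heliocidaris erythrogramma* (*He*), a species whose large egg gives rise to a non-feeding larva that metamorphoses early. All features carrying these names were taken, and features of the same name were summed, which gave 6 features for the 3 genes out of 38707 features and 20615 gene names. *otx* was the single feature HER_18060.t1 and *eve* the single feature HER_40075.t1. The name *krl* was carried by 4 features, of which HER_30505.t1 held 3154 UMIs (unique molecular identifiers, the counted molecules) or 92.5% of the *krl* total, and HER_30494.t1 held 246 UMIs or 7.22%.

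The samples were 7 single-cell RNA-seq libraries, 1 each from 6, 9, 12, 16, 20, 24 and 30 hours post fertilization (hpf), made from whole dissociated *He* embryos and larvae that were fixed in methanol. The labels name all samples larvae, and give neither a genotype nor a treatment that would set one library apart from another. After the cell filter 23156 of 23173 barcodes were kept, 486 (16 hpf) to 5346 (30 hpf) per library, with a median of 1273 to 2581 UMIs per cell and 936734 to 10769034 UMIs per library. Pairs of libraries shared 0 to 11 cell barcodes, and 63 barcodes stood in more than 1 library. With 1 library per time point no test between time points or between cells was made. Intervals in brackets are exact 95% intervals that cover counting error only, and a change of at least 2-fold stands in for a test, called after adding a pseudocount of 1 CPM between libraries and 5 CPM between sets of cells.

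Otx and Eve are homeodomain transcription factors, and Krl is a Krüppel-like zinc finger factor. In *Strongylocentrotus purpuratus*, a sea urchin with a feeding larva, Otx takes part in endomesoderm specification and later in oral ectoderm and ciliary band programs, Eve acts in the vegetal cells that give rise to posterior endoderm and the ectoderm beside it, and Krl keeps the animal factor SoxB1 out of vegetal cells. Wnt1 is a signalling ligand made at the vegetal, later posterior, pole, and FoxQ2 is a forkhead factor of the animal pole, so that cells with *wnt1* or *foxq2-1* UMIs mark opposite ends of the primary axis.

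All 3 genes were highest in the 9 hpf library, and *krl* was the only one of them that was nearly absent by 20 hpf. Levels are given as CPM, the gene's UMIs divided by all UMIs of the library, or of the set of cells described, and multiplied by 1000000. They are not compared between genes because they are not scaled to transcript length. *otx* stood at 136 CPM at 6 hpf, 603 CPM at 9 hpf, 364 CPM at 12 hpf, 199 CPM at 16 hpf, 143 CPM at 20 hpf, 75.2 CPM at 24 hpf and 36.0 CPM at 30 hpf. *eve* stood at 53.3, 222, 111, 87.5, 51.7, 30.5 and 18.2 CPM over the same libraries in the same order. *krl* stood at 26.3, 224, 96.4, 31.0, 2.50, 2.76 and 0.402 CPM, and the last 3 of these values came from 12, 24 and 3 UMIs. A single peak at 9 hpf was thus common to the 3 genes, and 1440 of the 9730 gene names with a mean of at least 5 CPM (14.8%) were also highest in that library.

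**Figure D1:**
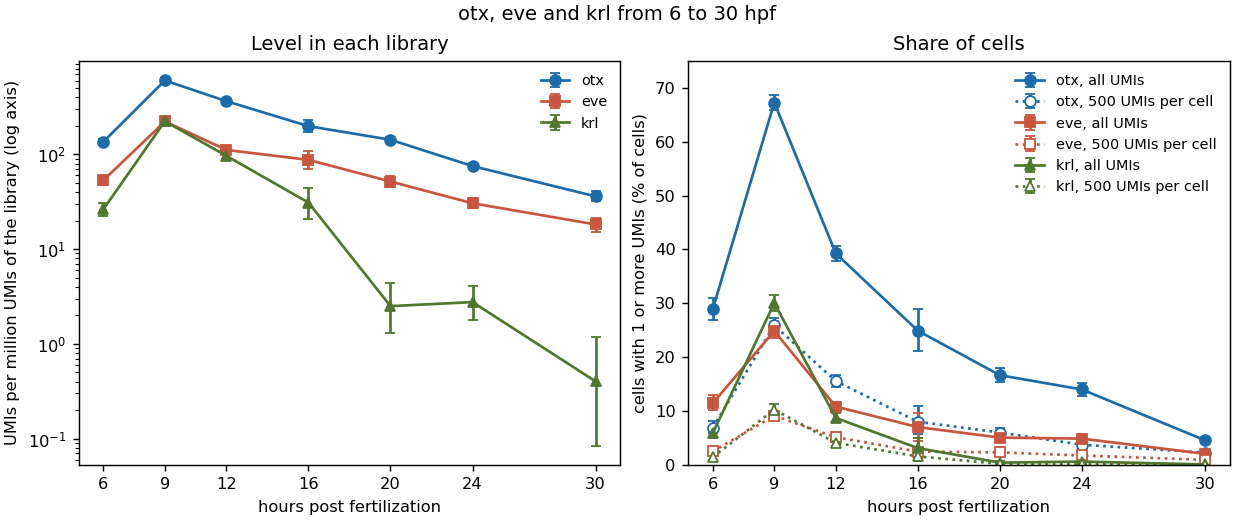
Left, CPM of *otx*, *eve* and *krl* in each library (log axis) against hours post fertilization; right, the percent of cells with 1 or more UMIs, in all cells (filled) and in cells thinned to 500 UMIs (open). Bars are exact 95% counting intervals; all 3 genes peak at 9 hpf, and *krl* drops to 2.50 CPM by 20 hpf while *otx* (143 CPM) and *eve* (51.7 CPM) are still counted.

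Between 6 and 9 hpf *otx* rose 4.44-fold (4.12 to 4.78), *eve* 4.17-fold (3.70 to 4.71) and *krl* 8.50-fold (7.20 to 10.1). A 2-fold or larger rise over this step was found for 20.1% of the 9730 gene names. Between 9 and 12 hpf *krl* fell to 0.431 of its level (0.397 to 0.468), a size of fall shared by 18.7% of gene names, whereas *eve* at 0.501 (0.463 to 0.541) and *otx* at 0.603 lay on the other side of 2-fold. The *krl* ratio stood at 0.501 when libraries were scaled by median-of-ratios size factors.

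*krl* fell again at each of the next 2 steps. It had 0.321 of its 12 hpf level at 16 hpf (0.214 to 0.465), a fall seen in 8.58% of gene names, and 0.0808 of its 16 hpf level at 20 hpf (0.0376 to 0.163), against 2.97% of gene names. Neither *otx* (0.546 and 0.718) nor *eve* (0.786 and 0.591) fell by 2-fold at these steps. From 20 to 24 hpf no member passed 2-fold (*otx* 0.527, *eve* 0.589, *krl* 1.10, 0.531 to 2.42), and 2.88% of gene names fell by that much. From 24 to 30 hpf *otx* fell to 0.479 (0.414 to 0.553) and *krl* to 0.146 (0.0281 to 0.479, from 3 UMIs at 30 hpf), against 1.95% of gene names. The median log2 ratio over all gene names was −0.15 from 9 to 12 hpf, 0.15 from 12 to 16 hpf and −0.19 from 20 to 24 hpf, and was under 0.1 in size at the other steps.

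Over the whole course the 9 hpf level was 16.7 times (14.8 to 19.0) the 30 hpf level for *otx*, 12.2 times (10.3 to 14.6) for *eve* and 557 times (190 to 2702) for *krl*. The 16 hpf library had the fewest cells, and without it the step from 12 to 20 hpf was 0.394 for *otx* and 0.0359 for *krl*. Over this longer step *eve* also fell by more than 2-fold. Its levels were 111 CPM (12 hpf) and 51.7 CPM (20 hpf).

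The share of cells with a UMI was also highest at 9 hpf for each gene. *otx* was counted in 28.9%, 67.3%, 39.2%, 24.9%, 16.6%, 14.0% and 4.55% of cells from 6 to 30 hpf. *eve* was counted in 11.4%, 24.9%, 10.8%, 7.00%, 5.04%, 4.85% and 2.02% of cells, and *krl* in 5.86%, 30.0%, 8.69%, 3.09%, 0.390%, 0.581% and 0.0561%. In cells thinned to 500 UMIs, which sets 1 depth for all libraries, the 9 hpf share was 25.9% for *otx*, 9.10% for *eve* and 10.2% for *krl*, and 9 hpf remained the highest time point for each. The order of the other times depended on depth. *eve* was in a slightly larger share of cells at 6 hpf than at 12 hpf, but after thinning in 2.47% at 6 hpf and 5.11% at 12 hpf.

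Positive cells also held more UMIs of each gene at 9 hpf than at 6 or 30 hpf. An *otx*-positive cell held on average 1.30 *otx* UMIs at 6 hpf, 2.39 at 9 hpf and 1.11 in the 30 hpf library. The mean for *eve* was 1.29, 2.39 and 1.26 UMIs in these 3 libraries (2.41 at 16 hpf), and the mean for *krl* was 1.24, 1.99 and 1 UMI. In sums over a library, fewer cells with a gene and less RNA of it per cell cannot be told apart, and both values moved here.

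The second *krl* feature was counted early as well. HER_30494.t1 had 35, 102, 103 and 5 UMIs at 6, 9, 12 and 16 hpf, then 0, 1 and 0, so that it made up 23.3% of the *krl* UMIs at 6 hpf, 4.24% at 9 hpf and 13.2% at 12 hpf. Cells with this feature often had the main one as well. At 9 hpf 82.8% of its cells had HER_30505.t1, against 28.5% of the cells without it, and at 12 hpf 65.4% against 7.09%. How the reads were divided between the 2 features was not tested, and values for *krl* are sums over the name.

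The gene names whose course over the 7 libraries was most like that of each member, by Pearson's r of log2(CPM + 1) among 5053 names with a mean of at least 20 CPM, included another member for *otx* and for *eve*. *otx* was closest to *eve* (r = 0.9912), *scrap* (0.9906) and *slc25a26-1* (0.9892), and *eve* to *unken3-5dl* (0.9941), *otx* and *lhfpl2* (0.9839). *krl* was closest to *slc35c1* (0.9860), *hypp-75* (0.9792) and *lpp60* (0.9759), and had r = 0.9358 with *otx* and 0.9436 with *eve*. With 7 points that share their libraries these values only rank the names. Without the 16 hpf library the highest names for *krl* were *cycl1* (0.9964), *tax1bp1-2* (0.9942) and *hypp-75* (0.9916).

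Overlap with the ends of the primary axis was then examined in single cells. Cells were called positive at 1 or more raw UMIs. There were 59, 829 and 391 *wnt1*-positive cells at 6, 9 and 12 hpf, and 380, 1197 and 584 *foxq2-1*-positive cells. Positive cells were somewhat deeper than negative ones, with median UMIs of 3055 against 2571, 2625 against 2437 and 1840 against 1649 for *wnt1*, and 2751 against 2539, 2620 against 2432 and 1772 against 1644 for *foxq2-1*. CPM ratios take this depth into account, and shares of cells do not.

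*eve* and *krl* were concentrated in *wnt1*-positive cells at all 3 times, and *otx* was counted widely with a smaller excess there. At 9 hpf 597 of 829 *wnt1*-positive cells (72.0%) had *eve*, against 406 of 3205 *wnt1*-negative cells (12.7%). The *eve* level was 711 CPM in *wnt1*-positive cells and 84.9 CPM in *wnt1*-negative cells, a ratio of 8.37 (7.66 to 9.15). *krl* was in 603 *wnt1*-positive cells (72.7%) and 609 *wnt1*-negative cells (19.0%), at 649 and 104 CPM, a ratio of 6.25 (5.75 to 6.80). Both passed 2-fold, as did 2.15% of gene names at 9 hpf. *otx* was in 84.8% of *wnt1*-positive cells and 62.8% of *wnt1*-negative cells, at 963 and 502 CPM, and its ratio of 1.92 (1.82 to 2.02) did not pass 2-fold. When each cell was thinned to 1000 UMIs the shares in *wnt1*-positive and *wnt1*-negative cells were 50.0% and 8.80% for *eve*, 47.1% and 12.0% for *krl*, and 62.1% and 38.4% for *otx*.

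*eve* and *krl* were already higher in *wnt1*-positive cells at 6 hpf, from fewer UMIs. *eve* stood at 293 CPM in *wnt1*-positive cells and 44.7 CPM in *wnt1*-negative cells, a ratio of 6.54 (4.83 to 8.74), with 50.8% and 10.3% of cells positive. *krl* stood at 131 and 22.5 CPM, a ratio of 5.82 (3.66 to 8.94), with 30.5% and 5.13% of cells positive. At 6 hpf 2.63% of gene names were at least 2-fold higher in *wnt1*-positive cells. *otx* was at 182 CPM in *wnt1*-positive cells and 134 CPM in *wnt1*-negative cells, and its ratio of 1.35 (0.939 to 1.89) was not distinguishable from 1 at this depth. These 6 hpf ratios moved by more than 1.5 times with the call of positive cells. With 2 or more *wnt1* UMIs required, which left 13 positive cells, the *eve* ratio was 15.6 and the *krl* ratio 9.90. The *otx* ratio was 0.831, on the other side of 1. In cells thinned to 1000 UMIs the *krl* ratio was 3.65, with *krl* in 1 of 20 *wnt1*-positive cells. These alternatives rest on too few cells to fix the size or side of a shift.

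At 12 hpf *krl* had the highest of the 3 ratios. *krl* stood at 540 CPM in *wnt1*-positive cells and 49.8 CPM in *wnt1*-negative cells, a ratio of 10.8 (9.39 to 12.5), and 196 of 391 *wnt1*-positive cells (50.1%) had it, against 4.94% of *wnt1*-negative cells. *eve* stood at 294 and 92.1 CPM, a ratio of 3.19 (2.73 to 3.71), with 29.9% of *wnt1*-positive and 9.06% of *wnt1*-negative cells positive. *otx* now passed 2-fold, at 720 and 326 CPM (ratio 2.20, 2.01 to 2.42), as did 2.26% of gene names. Thinned to 1000 UMIs, 38.7% of *wnt1*-positive and 4.21% of *wnt1*-negative cells had *krl*, while 24.3% and 6.97% had *eve*. Read from the other side, 59.5% of the *eve*-positive cells were *wnt1*-positive at 9 hpf and 23.0% at 12 hpf, whereas for *krl*-positive cells these shares were 49.8% and 47.9%. For *otx*-positive cells they were 25.9% and 13.5%. Of all cells 20.6% were *wnt1*-positive at 9 hpf and 8.31% at 12 hpf, so the share among *eve*-positive cells was lower at 12 hpf along with that of all cells, and the share among *krl*-positive cells was not.

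**Figure D2:**
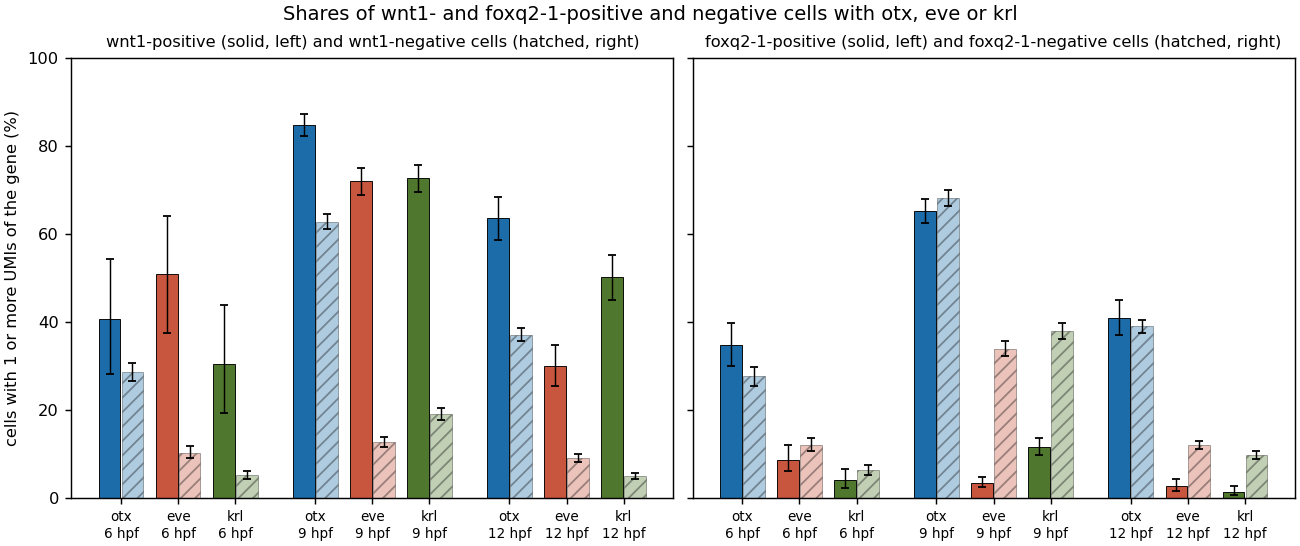
Percent of cells with 1 or more UMIs of *otx*, *eve* or *krl* at 6, 9 and 12 hpf, in *wnt1*-positive (solid, left bar) and *wnt1*-negative cells (hatched), and in *foxq2-1*-positive and *foxq2-1*-negative cells; error bars are exact 95% counting intervals. At 9 hpf *eve* is in 72.0% of *wnt1*-positive cells and 3.43% of *foxq2-1*-positive cells, while *otx* is in over 60% of cells of every set.

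*foxq2-1*-positive cells gave the reverse picture for *eve* and *krl*. *otx* was widely counted in them, at a moderately lower level than in *foxq2-1*-negative cells at 9 and 12 hpf. At 9 hpf *eve* had 20.2 CPM in *foxq2-1*-positive cells and 314 CPM in *foxq2-1*-negative cells, a ratio of 0.0642 (0.0497 to 0.0817), and was counted in 41 of 1197 (3.43%) against 962 of 2837 cells (33.9%). *krl* had 54.3 and 301 CPM, a ratio of 0.181 (0.155 to 0.210), and was counted in 11.5% and 37.9% of cells. Only 1.14% of gene names were at least 2-fold lower in *foxq2-1*-positive cells. *otx* had 487 CPM in *foxq2-1*-positive cells and 656 CPM in *foxq2-1*-negative cells (0.742, 0.702 to 0.785), and was in 65.2% and 68.2% of cells. These *foxq2-1*-positive cells had nearly the same median depth as the *wnt1*-positive cells (2620 and 2625 UMIs), of which 72.0% had *eve* and 72.7% had *krl*. How much free RNA added to any of these shares was not tested. The *eve* ratio was 0.0404 with 2 or more *foxq2-1* UMIs required and 0.0320 in thinned cells.

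At 12 hpf *eve* had 29.5 CPM in *foxq2-1*-positive and 124 CPM in *foxq2-1*-negative cells, a ratio of 0.238 (0.162 to 0.339). *krl* had 13.8 and 109 CPM, a ratio of 0.127 (0.0706 to 0.210), and *otx* 311 and 372 CPM, a ratio of 0.836 (0.744 to 0.936). A 2-fold lower level was found for 3.95% of gene names. At 6 hpf the separation was less sharp. *krl* had 13.1 and 29.6 CPM (0.444, 0.242 to 0.758), which is −0.93 on the log2 scale with the pseudocount and so did not pass 2-fold, as 0.154% of gene names did. *eve* had 32.4 and 58.6 CPM (0.553, 0.381 to 0.782), and *otx* had 151 and 132 CPM (1.14, 0.956 to 1.35). The *krl* ratio at 6 hpf rested on the call of positive cells, since it was 0.962 with 2 or more *foxq2-1* UMIs required and 0.866 in thinned cells. The *eve* ratio at 12 hpf was 0.102 and 0.120 under these settings.

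At 9 and 12 hpf cells with neither partner lay between the 2 ends. At 9 hpf *eve* had 739 CPM in the 792 cells with *wnt1* alone, 287 CPM in the 37 cells with both, 132.7 CPM in the 2045 cells with neither and 8.07 CPM in the 1160 cells with *foxq2-1* alone. *krl* had 675, 260, 140 and 45.0 CPM in these sets in the same order, and *otx* 976, 773, 519 and 474 CPM. The median depth was 2594, 3734, 2360 and 2598 UMIs, so the cells with both partners were the deepest, and doublets were not called. At 12 hpf *krl* had 539 CPM in cells with *wnt1* alone, 57.3 CPM in cells with neither and 5.62 CPM in cells with *foxq2-1* alone, and *eve* had 292, 104 and 24.3 CPM. The step between neither and *foxq2-1* alone was thus clear for *eve* and *krl* at both times, and small for *otx* (330 and 308 CPM at 12 hpf).

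The partners were also compared at later times, a step added after the early values had been seen. In *wnt1*-positive over *wnt1*-negative cells *eve* kept a high ratio, which was 5.57 (3.33 to 9.06), 8.43 (6.30 to 11.2), 11.5 (8.96 to 14.8) and 4.89 (2.38 to 9.05) in the 16, 20, 24 and 30 hpf libraries. *krl* had a ratio of 17.98 (8.09 to 41.3) at 16 hpf from 29 UMIs, and too few UMIs later. *otx* ratios were 0.954, 1.44, 1.77 and 2.59 at 16, 20, 24 and 30 hpf. In *foxq2-1*-positive over *foxq2-1*-negative cells *otx* was above 1 at all 4 later times, at 1.86 (1.28 to 2.65), 1.38 (1.02 to 1.82), 2.12 (1.61 to 2.76) and 1.98 (1.01 to 3.51). It had been below 1 at 9 and 12 hpf. *eve* was low there, at 0.165 (0.0196 to 0.615), 0.133 (0.0161 to 0.487) and 0.154 (0.0186 to 0.562) at 16, 20 and 24 hpf. Each of these *eve* values rested on only 2 UMIs in *foxq2-1*-positive cells. At 30 hpf none of the 136 *eve* UMIs fell in one of the 148 *foxq2-1*-positive cells, but the interval of that ratio reached 1.16, so a difference was not detectable at this depth.

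**Figure D3:**
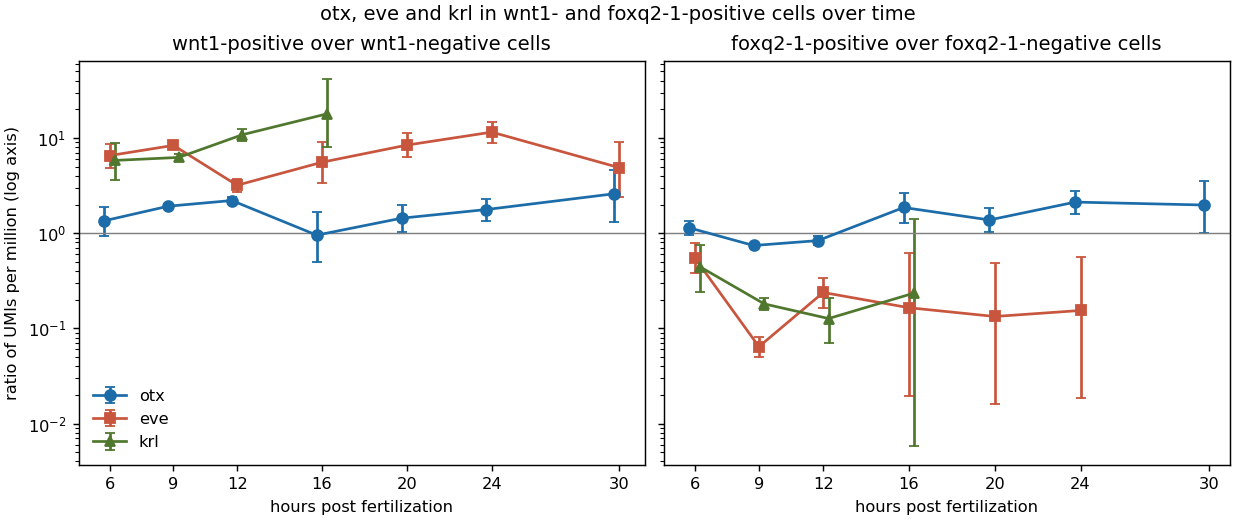
Ratio of CPM in *wnt1*-positive over *wnt1*-negative cells (left) and in *foxq2-1*-positive over *foxq2-1*-negative cells (right) against hours post fertilization, on a log axis with exact 95% counting intervals; the line at 1 marks equal levels, and *krl* is drawn only up to 16 hpf, where its UMIs allow a ratio. *eve* stays above 3 on the left and below 0.6 on the right, while *otx* on the right is 0.742 at 9 hpf and 2.12 at 24 hpf.

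*eve* and *krl* were often counted in the same cells. At 9 hpf *krl* was in 63.5% of *eve*-positive cells and 19.0% of *eve*-negative cells, and its level was 4.63 times higher there (4.26 to 5.03). At 12 hpf these shares were 27.2% and 6.46% (ratio 4.27, 3.68 to 4.95), and at 6 hpf 14.0% and 4.81% (2.34, 1.59 to 3.36). Thinned to 1000 UMIs, *krl* was in 40.8% of *eve*-positive and 13.2% of *eve*-negative cells at 9 hpf, and in 21.5% and 4.88% at 12 hpf. *otx* was 1.62 times higher in *eve*-positive than in *eve*-negative cells at 9 hpf and 1.33 times at 12 hpf, and 1.52 and 2.15 times higher in *krl*-positive than in *krl*-negative cells.

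The company that each gene kept was described with 3 lists of genes known from other sea urchins. The vegetal list includes *wnt1* and the animal pole list includes *foxq2-1*, so the list counts in part repeat the overlap given above. In the vegetal list 13 of 14 names were found and 12 passed the low-count filter, in the animal pole list 8 passed, and the ectoderm axis list had 13. In *eve*-positive over *eve*-negative cells 3, 9 and 6 vegetal genes were at least 2-fold higher at 6, 9 and 12 hpf, against 0.206%, 1.52% and 0.689% of gene names, with list medians of 0.67, 2.10 and 0.61 on the log2 scale. In *krl*-positive over *krl*-negative cells 5, 9 and 9 were higher, against 0.802%, 1.20% and 2.27% of gene names, with medians of 0.38, 1.80 and 2.16. In *otx*-positive over *otx*-negative cells 0, 7 and 2 were higher, against 0%, 0.432% and 0.103%, with medians of 0.09, 1.05 and 0.57. The count for *otx* and *eve* was thus highest at 9 hpf, and for *krl* it was the same at 9 and 12 hpf. The filter used the mean over libraries, and at 6 hpf several vegetal genes were near or below the pseudocount of 5 CPM. *foxa* had 3.16 CPM at 6 hpf and 243 CPM at 9 hpf, and *foxn2/3* had 5.26 and 93.6 CPM. A 2-fold call was harder to reach for such genes at 6 hpf, so the counts at 6 hpf are not directly comparable with later ones. At 12 hpf 2 vegetal genes were at least 2-fold lower in *eve*-positive cells, *delta* (19.8 CPM in *eve*-positive and 51.5 CPM in *eve*-negative cells) and *tgif* (ratio 0.362), a homeodomain factor. The medians over all gene names were at most 0.05 in size in these 9 comparisons.

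Named vegetal genes show how large these differences were. At 9 hpf *eve*-positive cells had 661 CPM of *foxa*, an endoderm forkhead factor, against 91.3 CPM in *eve*-negative cells, and 624 against 90.9 CPM of *hox11/13b*, a posterior Hox factor. *delta*, the Notch ligand, had 173 CPM in *eve*-positive cells and 20.3 CPM in *eve*-negative cells. The animal pole genes went the other way, with *six3* at 97.9 against 1311 CPM and *hbn* at 52.9 against 704 CPM. Of the animal pole list 6 genes were at least 2-fold lower in *eve*-positive cells at 9 hpf (1.57% of gene names) and 6 at 12 hpf (2.88%), and in *krl*-positive cells 6 (0.586%) and 7 (4.89%). In *otx*-positive cells none of them was 2-fold lower, and *six3* had a ratio of 0.863 at 9 hpf.

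Ranked over all gene names with enough UMIs, *wnt1* itself was among the 3 highest names for *eve* and *krl* at 6 and 9 hpf. In *eve*-positive over *eve*-negative cells the highest names by log ratio were *wnt1*, *phd1* and *wnt8* at 6 hpf, and *wnt1* (10.0-fold), *p75ntr* and *phd1* at 9 hpf. At 12 hpf they were *bra* (9.98-fold), the T-box factor Brachyury, *blimp1* (8.96-fold), a zinc finger repressor, and *wnt5* (6.77-fold). For *krl* they were *wnt1*, *wnt8* and *eve* at 6 hpf, *phd1*, the ETS factor gene *erg* and *wnt1* at 9 hpf, and *wnt1* (12.7-fold), *phd1* and *perld1* at 12 hpf. For *otx* they were *coro2b*, *hal* and *hypp-2935* at 6 hpf, *ksr2* (4.78-fold), *erg* and *tie1/2* at 9 hpf, and *cadherin-6*, *wnt1* and *perld1* at 12 hpf. The names for *otx* at 6 hpf did not pass 2-fold (1.91, 1.87 and 1.85 with the pseudocount), and 0 of 9729 gene names did.

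Cells with *eve* alone and cells with *krl* alone differed in their *wnt1* share at 9 hpf, and differed the other way at 12 hpf. At 9 hpf 637 cells had both, 366 had *eve* without *krl* and 575 had *krl* without *eve*. At 12 hpf 138 had both, 370 had *eve* alone and 271 had *krl* alone. Alone means that no UMI of the other gene was counted, in cells that were not thinned. Positive cells held on average only 1.78 *eve* UMIs and 1.91 *krl* UMIs at 12 hpf. Cells of either set may therefore hold the other gene uncounted, and the sets are not taken as separate cell types. By share, 39.3% of the *eve*-only and 26.1% of the *krl*-only cells were *wnt1*-positive at 9 hpf, but 10.0% (37 of 370) of the *eve*-only and 42.8% (116 of 271) of the *krl*-only cells at 12 hpf. Of the cells with both, 71.1% were *wnt1*-positive at 9 hpf and 58.0% at 12 hpf. Cells with both had the highest share at either time, and cells with neither the lowest (3.34% and 4.02%).

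At 12 hpf endomesoderm factors were several-fold lower in *eve*-only than in *krl*-only cells. *foxa* had 470 CPM in *eve*-only cells and 3319 CPM in *krl*-only cells, a ratio of 0.142 (0.125 to 0.160). *foxn2/3*, a forkhead factor, had 219 against 1559 CPM, and *hox11/13b* 494 against 1309 CPM. *gatae*, an endoderm GATA factor, had 31.5 CPM in *eve*-only cells and 120 CPM in *krl*-only cells (ratio 0.262). *delta* had 4 UMIs in *eve*-only cells and 61 in *krl*-only cells (0.0429), and *wnt16* had 3 UMIs in *eve*-only cells (0.0409). Of the 12 vegetal genes 9 were at least 2-fold lower and 1 higher in *eve*-only cells, with a median of −1.78 on the log2 scale, against −0.02 over all gene names, of which 5.78% were lower and 7.33% higher. The 1 higher gene was *wnt8* (74.5 against 32.8 CPM), a Wnt ligand. *bra* (184.9 against 195 CPM) and *blimp1* (ratio 0.814, 0.529 to 1.26) were not distinguishable between the sets. Both were highest in cells with *eve* and *krl*, where *bra* had 662 CPM and *blimp1* 310 CPM.

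Genes of the ectoderm axes were higher in *eve*-only cells at 12 hpf. *univin*, a TGF-β ligand, had 1607 CPM in *eve*-only cells and 256 CPM in *krl*-only cells, a ratio of 6.27 (5.18 to 7.65). *nodal*, the ligand of the oral organizer in other sea urchins, had 143 against 15.3 CPM (9.35, 4.38 to 23.9), and the homeobox gene *emx* had 324 against 54.7 CPM (5.92, 3.91 to 9.34). In total 8 of the 13 ectoderm axis genes were at least 2-fold higher and none lower, with a median of 1.59. Of all gene names 7.33% were higher and 5.78% lower. Among the 8, *bmp2/4* (7 UMIs in *eve*-only and 0 in *krl*-only cells) and *tbx2/3* (14 and 2 UMIs) rested on few counts. In cells with neither gene *univin* had 1344 CPM, *nodal* 120 CPM and *emx* 195 CPM. The *krl*-only cells were far below these levels. The *eve*-only cells were nearer to them in *univin* and *nodal*, but clearly above them in *emx* (324 CPM). *otx* followed *krl*, with 394 CPM in *eve*-only cells and 740 CPM in *krl*-only cells. The median depth of *eve*-only and *krl*-only cells was 1840 and 1561 UMIs.

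**Figure D4:**
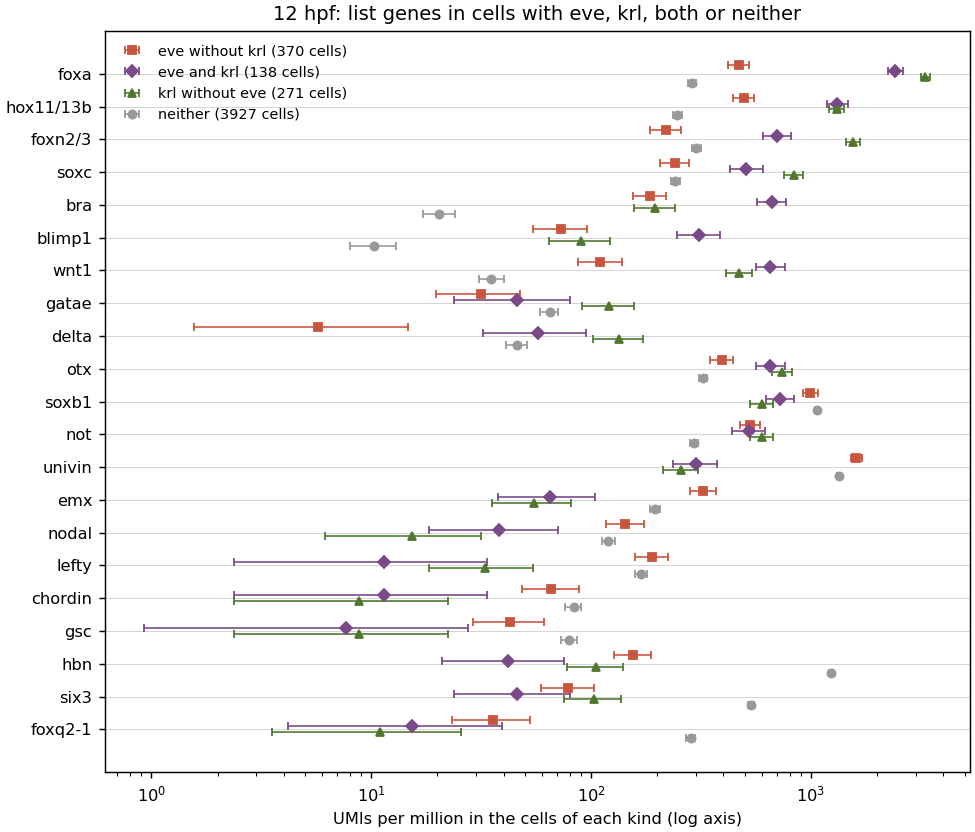
CPM (log axis) of list genes at 12 hpf in cells with *eve* without *krl* (370 cells), with both (138), with *krl* without *eve* (271) and with neither (3927), with exact 95% counting intervals. *foxa*, *foxn2/3* and *delta* are higher in *krl*-only cells, *univin*, *emx* and *nodal* in *eve*-only cells, and *bra* and *blimp1* peak in cells with both.

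Other genes separated the sets at 9 hpf. No vegetal gene differed by 2-fold between *eve*-only and *krl*-only cells, where 0.267% of gene names were higher and 0.483% lower. Of the 8 animal pole genes 4 were at least 2-fold lower in *eve*-only cells, with *foxq2-1* at 54.4 against 232 CPM, *six3* at 156 against 663 CPM, *hbn* at a ratio of 0.282 and *fzd5/8*, a Wnt receptor gene, at 0.375. At 9 hpf *krl* alone was therefore also counted in some cells with animal pole genes, and at 12 hpf *six3* had 78.8 CPM in *eve*-only and 103 CPM in *krl*-only cells.

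*soxb1*, the gene that Krl acts on in other sea urchins, was lower in *krl*-positive cells at 12 hpf without passing 2-fold. It had 643 CPM in *krl*-positive cells and 1061 CPM in *krl*-negative cells, a ratio of 0.606 (0.551 to 0.666). At 6 and 9 hpf the ratios were 0.921 and 0.882.

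Levels were then given in cells with at least 2 markers of a cell type, using the markers the study lists, none of which is *otx*, *eve* or *krl*. The Early Endomesoderm markers include *wnt1* and the Animal Pole Domain markers include *foxq2-1*. Levels in these sets are therefore not independent of the overlap with *wnt1* and *foxq2-1* given above. The cells with Early Endomesoderm markers (*foxa*, *hox11/13b*, *foxn2/3* and *wnt1*) numbered 984 at 9 hpf and 1187 at 12 hpf, with 496 and 628 more cells at exactly 1 marker and 289 and 504 at exactly 2. *eve* had 687 CPM in them at 9 hpf, 11.4 times (10.3 to 12.7) its level in the other cells, and 210 CPM at 12 hpf, 2.78 times (2.43 to 3.17). *krl* had 607 CPM at 9 hpf, 6.76 times (6.19 to 7.38), and 333.2 CPM at 12 hpf, 31.1 times (24.0 to 40.8). *otx* had 925 and 516 CPM, 1.89 and 1.67 times. With at least 3 markers required the *eve* ratio at 9 hpf was 7.02 and the *krl* ratio at 12 hpf 16.2. Of the *krl*-positive cells at 12 hpf 362 of 409 (88.5%) had these markers, as did 25.2% of all cells, and of the *eve*-positive cells 44.1%. In cells with Early Mesoderm markers, which share *foxn2/3* and *hox11/13b* with this set, the *eve* ratio was 6.31 at 9 hpf and 1.18 (1.03 to 1.36) at 12 hpf. The 12 hpf value was 0.373 with 3 markers required. The *krl* ratio in cells with Early Mesoderm markers was 4.71 at 9 hpf and 5.61 (4.79 to 6.58) at 12 hpf. At 12 hpf 70.7% of *krl*-positive cells had Early Mesoderm markers, as did 29.7% of all cells. The few *krl* UMIs left at 20 hpf were still 16.0 times (4.36 to 63.8, from 12 UMIs) more frequent in cells with Early Endomesoderm markers.

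**Figure D5:**
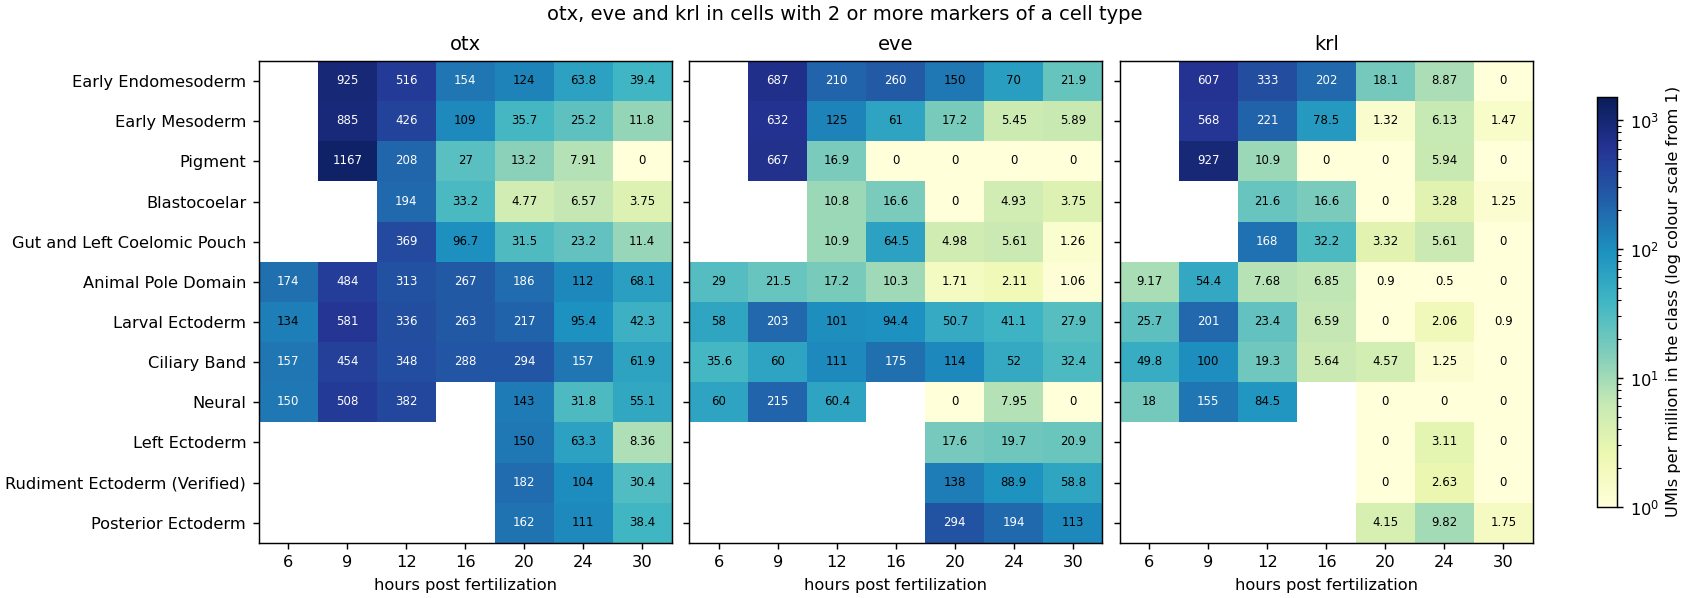
CPM of *otx*, *eve* and *krl* in cells with 2 or more markers of a cell type (rows) at each time (columns), as numbers and on a log colour scale that starts at 1; blank cells are types with under 30 cells in that library. *eve* is highest in Early Endomesoderm at 9 hpf (687 CPM) and in Posterior Ectoderm at 20 to 30 hpf (294, 194 and 113 CPM), and *otx* is low in Pigment and Blastocoelar cells from 20 hpf.

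Among the marker sets, *eve* was highest late in the course in cells with Posterior Ectoderm markers. Its level in *wnt1*-positive cells was higher still at 20 and 24 hpf (327 and 213 CPM), but not at 30 hpf (83.3 CPM). In cells with Early Endomesoderm markers its ratio was 3.48 at 20 hpf and 2.85 at 24 hpf. Cells with Posterior Ectoderm markers (*hox7*, *wnta*, *lox* and *msx*; *lox* is the ParaHox gene known as Xlox or Pdx) numbered 140, 261 and 401 at 20, 24 and 30 hpf, with 343, 502 and 960 cells at exactly 1 marker. *eve* had 294 CPM in them and 38.8 CPM in the other cells at 20 hpf, a ratio of 7.58 (5.67 to 10.0). At 24 hpf it had 194 and 15.9 CPM, a ratio of 12.2 (9.49 to 15.6), and at 30 hpf 113 and 10.3 CPM, a ratio of 11.0 (7.75 to 15.6). These cells held 25.2%, 46.1% and 46.3% of the *eve*-positive cells at the 3 times and 4.55%, 7.58% and 7.501% of all cells. Their median depth of 1632, 2433 and 1289 UMIs was close to the 1478, 2330 and 1273 UMIs of the other cells.

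*eve* was counted both in *wnt1*-positive cells and in cells with Posterior Ectoderm markers, and at 24 hpf cells with both had most. At 24 hpf *eve* had 396 CPM in the 45 cells with Posterior Ectoderm markers and *wnt1*, 142 CPM in 216 cells with the markers alone, 146 CPM in 135 cells with *wnt1* alone and 9.22 CPM in the 3045 cells with neither. It was counted in 60.0%, 23.1%, 28.1% and 1.71% of these cells. At 20 hpf the values were 616 (318 to 1075), 266 (203 to 343), 298 (227 to 386) and 27.3 CPM, the first from only 12 UMIs in 10 cells, so that its interval overlapped those of the next 2 sets. At 30 hpf cells with both had 177 CPM (64.9 to 385, from 6 UMIs), not distinguishable from the 109 CPM (83.3 to 141) with the markers alone, and *wnt1* alone had 50.9 CPM (16.5 to 119).

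Each posterior marker taken alone gave a ratio above 4 for *eve*. In *lox*-positive over *lox*-negative cells it was 8.02, 9.81 and 10.5 at 20, 24 and 30 hpf, and in cells with *hox7*, a Hox gene whose own level went up to 445 CPM at 30 hpf, it was 4.70, 5.37 and 8.08. In cells with *wnta*, a Wnt ligand gene, it was 5.84, 12.0 and 4.79, and in cells with *msx*, a homeobox gene, 4.07, 4.86 and 4.80. *wnt3*, a Wnt ligand gene that the study lists for the Rudiment Ectoderm, gave 7.77, 8.74 and 7.46, and cells with at least 2 Rudiment Ectoderm markers, which share *msx* with the posterior set, gave 2.998, 4.91 and 4.79. In cells with Ciliary Band markers the *eve* ratio was 0.240 at 9 hpf and 0.992 at 12 hpf, and lay between 1.93 (30 hpf) and 2.74 (20 hpf) in the later libraries.

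The overlap of *eve* with *foxa* was lower at each later time up to 24 hpf, and that with *hox11/13b* was not. In *foxa*-positive over *foxa*-negative cells the *eve* ratio was 8.78 (8.01 to 9.65) at 9 hpf, 3.21 at 12 hpf, 1.91 at 16 hpf, 0.946 (0.654 to 1.34) at 20 hpf and 0.230 (0.121 to 0.401) at 24 hpf. In *hox11/13b*-positive cells it stayed high, at 8.30 at 9 hpf, 4.07 at 12 hpf, 7.58 at 16 hpf, 9.04 (6.87 to 11.8) at 20 hpf and 5.81 at 24 hpf. *krl* was in 35.1% of *foxa*-positive and 1.41% of *foxa*-negative cells at 12 hpf, and its ratio was 5.54 at 9 hpf, 39.0 (30.4 to 50.9) at 12 hpf and 25.6 at 16 hpf. The ratio to *foxa* thus moved in opposite directions for *eve* and *krl* from 9 to 12 hpf. These single-marker values were added after the early values had been seen.

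From 16 to 24 hpf *otx* was higher in cells with Ciliary Band, Animal Pole Domain and Larval Ectoderm markers than in other cells. In cells with Ciliary Band markers, of which *onecut*, a homeodomain factor of the ciliary band, and the tubulin gene *atub13* were matched, it had 454 CPM at 9 hpf, 0.723 of its level in other cells, but 294 CPM at 20 hpf, 2.48 times (2.09 to 2.94) the level in other cells, and 157 CPM at 24 hpf, 2.75 times (2.34 to 3.23). In cells with Animal Pole Domain markers its ratio was 0.663 at 9 hpf, and 1.60 (1.18 to 2.15), 1.73 (1.46 to 2.05) and 2.17 (1.61 to 2.89) in the 16, 24 and 30 hpf libraries. In cells with Larval Ectoderm markers it was 0.705 at 9 hpf, 2.07 (1.78 to 2.41) at 20 hpf and 1.21 (0.866 to 1.67) at 30 hpf. The sets changed in size, so ratios at different times compare unlike sets. Larval Ectoderm markers were in 86.9% of cells at 9 hpf (median 2599 UMIs, against 1645 in the rest) and 30.2% at 20 hpf. Animal Pole Domain markers were in 48.8% of cells at 9 hpf and 23.1% at 24 hpf. The other ectodermal sets, described from 20 hpf on, were mixed. In cells with Left Ectoderm markers the *otx* ratio was 1.05, 0.825 and 0.208 (0.0891 to 0.417) at 20, 24 and 30 hpf, with Rudiment Ectoderm markers 1.30, 1.505 and 0.826, and with Posterior Ectoderm markers 1.14, 1.54 and 1.07, and of the last 6 values only those at 24 hpf had intervals that excluded 1.

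In cells with Pigment, Blastocoelar or Gut and Left Coelomic Pouch markers *otx* was low from 16 hpf on. Cells with Pigment markers had 1167 CPM at 9 hpf, in 36 cells, which was 1.95 times (1.63 to 2.33) the level in other cells. They then had 208, 27.0, 13.2 and 7.91 CPM in the 12, 16, 20 and 24 hpf libraries. The values at 16, 20 and 24 hpf came from only 2, 4 and 4 UMIs. At 30 hpf no *otx* UMI was counted in 226 such cells, and 3 cells of these (1.33%) is the limit for cells with a UMI, not for cells expressing the gene. Cells with Blastocoelar markers had 194 CPM at 12 hpf and 4.77 CPM at 20 hpf, and the value at 20 hpf was 0.0292 (0.006 to 0.0856) of that in other cells. In cells with Gut and Left Coelomic Pouch markers the ratio was 0.199 at 20 hpf and 0.292 at 30 hpf. *eve* in cells with Pigment markers was 667 CPM at 9 hpf and 16.9 CPM at 12 hpf, and no *eve* UMI was counted in the 33, 191, 222 and 226 such cells at 16, 20, 24 and 30 hpf. The same limit of 3 cells with a UMI is 9.09% of them at 16 hpf and 1.57%, 1.35% and 1.33% at the later times.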

How the data were processed

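Single-cell RNA-seq libraries of *He* were made by the authors with 10x 3′ chemistry, 1 for each of 7 time points. The deposited matrices hold raw UMI counts per feature and cell, made with Cell Ranger 3.1.0 per the submitters' processing notes, which also name Seurat 4.0; the genome build is not given in the sources used here. After the study's methods, a cell needed over 200 genes, under 4000 genes and under 10000 UMIs. Doublets were not called. Counts were summed per library or set of cells and scaled to CPM. CPM have exact Poisson, shares Clopper-Pearson and ratios conditional binomial intervals (95%). Log2 ratios used a pseudocount of 1 CPM between libraries and 5 CPM between sets of cells, and names with a mean of at least 5 CPM formed the background. Cell types were marker sets of at least 30 cells, without clustering, and a cell could count in several. Named genes were the members, *wnt1*, *foxq2-1*, *soxb1*, list genes and markers, and the 3 names most alike in time or most enriched in positive cells (with 20 UMIs there). Members and lists were chosen with earlier results of these data known. Alternatives changed the cell filter, scaling, pseudocount, depth, positive call and number of markers. Python 3.11.15, numpy 2.4.6, scipy 1.17.1 and matplotlib 3.10.9 were used, and the calculations were tested on simulated data.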

Additional observations from a re-analysis of the deposited data

Results flagged for a closer look

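The ratio of *otx* CPM in *foxq2-1*-positive over *foxq2-1*-negative cells lay on different sides of 1 at different times. It was 0.742 at 9 hpf and 0.836 at 12 hpf, and 1.86, 1.38, 2.12 and 1.98 in the 16, 20, 24 and 30 hpf libraries. The counting interval of each of these values excluded 1, but with 1 library per time point the difference between time points was not tested. The intervals at 20 and 30 hpf began at 1.02 and 1.01, the last from 12 UMIs in positive cells. At these times the shares of *foxq2-1*-positive and negative cells with *otx* depended on depth. At 20 hpf they were 10.4% and 5.82% at 500 UMIs per cell, and 10.6% and 12.2% at 1000. At 30 hpf they were 1.14% and 2.27%, and 6.25% and 3.29%. Alternative settings for these ratios were run only at 6, 9 and 12 hpf. *foxq2-1*-positive cells numbered 1197 and 584 at the 2 early times and 64 to 189 at the 4 later times.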

How the results depend on the processing

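No paired analysis was possible because each time point is 1 library. Levels moved in 9 of 70 values, steps in 10 of 93, thinned shares in 27 of 42, ratios to *wnt1* and *foxq2-1* in 20 of 72 and class ratios in 49 of 303, with 5 class ratios reversed, where moved means past the counting interval; 81 class ratios were not run with 3 markers because fewer than 30 cells were left. With size factors the *otx* step from 6 to 9 hpf was 4.08. With 2 or more *wnt1* UMIs the ratios at 6 and 12 hpf were 0.831 and 2.43 for *otx*, 15.6 and 3.87 for *eve*, and 9.90 and 12.6 for *krl*. In cells thinned to 1000 UMIs they were 7.02 (*eve*, 9 hpf), 3.65 and 4.77 (*krl*, 6 and 9 hpf). At 6 hpf these values rest on 13 cells with 2 or more *wnt1* UMIs and 20 *wnt1*-positive thinned cells. With 2 or more *foxq2-1* UMIs they were 1.42 for *otx* at 6 hpf, 0.0973, 0.0404 and 0.102 for *eve* and 0.962, 0.131 and 0.0582 for *krl* at 6, 9 and 12 hpf, and thinned 0.825 (*otx*, 9 hpf), 0.0320 and 0.120 (*eve*, 9 and 12 hpf) and 0.866 (*krl*, 6 hpf). Without the 5% deepest cells none of the 18 ratios to *wnt1* or *foxq2-1* moved. With 3 markers these ratios changed side: *eve* in Larval Ectoderm cells 0.606 at 6 hpf and 0.469 at 30 hpf, *eve* in Early Mesoderm cells 0.373 at 12 hpf, and *krl* in Early Mesoderm cells 0.387 at 16 hpf and 0.995 at 24 hpf; the cause was not tested. Without the filter on low names 2446 of 20615 (11.9%) rose 2-fold from 6 to 9 hpf, against 1956 of 9730 (20.1%). With a pseudocount of 5 CPM the *krl* steps to 20 and 30 hpf were 0.209 and 0.696, so the last no longer passed 2-fold. Leaving out the 16 hpf library was chosen after seeing the data. Depth limits *krl* from 20 hpf on, which rests on 3 to 24 UMIs per library.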
